A study of Saccharomyces cerevisiae with 36 samples.

Results

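The data described here are 6 samples of *mip6Δ* yeast of 36 in the series, all taken at 0 min of the final heat shock. They are 3 memory samples and 3 no-memory samples, chosen by the strain, memory and time labels and not by any measured value. Both groups are haploid *Saccharomyces cerevisiae* BY4741 (MATa *his3Δ1 leu2Δ0 met15Δ0 ura3Δ0*) in which *MIP6* was replaced by KANMX4, grown exponentially in rich medium (YPD). The memory cultures had gone through a first heat shock of 20 min, started by adding medium at 51 °C, and then 60 min of recovery; each no-memory culture was the other part of the same split culture and was kept without a heat shock for that time. The *mip6Δ* strain is a single collection strain, and nothing in these data shows how another deletion clone would behave. WT samples at 0 min (3 memory and 3 no-memory) and *mip6Δ* samples at 15 and 20 min are used only for comparison.

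When yeast is heated, unfolded proteins titrate chaperones away from Hsf1, which then drives the genes for Hsp70, Hsp90, Hsp104 and their helpers. In parallel, Msn2 and Msn4 switch on a broader set of stress genes such as *HSP12*, *HSP26* and *CTT1*, and Rpn4 raises the proteasome subunits, while ribosome production is shut down. During recovery the transcripts of the heat shock genes normally decay and the ribosome genes return. Mip6 is an RNA-binding protein that has been tied to mRNA export and to the transcripts of Msn2/4 targets. Its paralog is Pes4.

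No read was assigned to *MIP6* in any of the 6 samples. The levels below are CPM, a gene's reads per M reads of the sample with the totals scaled by TMM factors. The 6 samples had 29.1 to 40.3 M reads assigned to genes, within the 28.3 to 42.2 M of the whole series. The a-specific genes *MFA1* (58.5 to 130.1 CPM) and *STE2* (574.5 to 952.8 CPM) were present. The alpha-factor genes *MF(ALPHA)1* and *MF(ALPHA)2* stayed under 1 CPM, whereas *SAG1*, listed as an alpha-specific gene, lay between 47.4 and 59.1 CPM. Memory replicate 2 carries labels that disagree, 0 min in its title and description and 20 min in another field. It was taken as 0 min, and its *HSP26* level, 10.1 CPM, lay between those of the other memory samples at 0 min (9.70 and 10.7 CPM), while the memory samples at 20 min had 5549, 7750 and 6165 CPM. Counts that move by over 1.5 times without it are also given without it.

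Heat shock transcripts were not uniformly low in the no-memory samples at 0 min. *BTN2*, a small chaperone-like factor that gathers misfolded proteins, had 3166, 1369 and 889 CPM in the no-memory samples at 0 min, 3562, 3029 and 1380 CPM at 15 min and 1787, 1588 and 780.1 CPM at 20 min. *APJ1*, an Hsp40 protein, had 767.8, 409.1 and 208.7 CPM at 0 min, above the 326.4, 225.1 and 121.9 CPM at 15 min in each same-numbered sample. By contrast, *HSP26*, a small heat shock protein, had 37.5, 26.1 and 24.0 CPM at 0 min against 16290, 13270 and 13340 CPM at 15 min. *HSP12*, a membrane-associated stress protein, had 30.5, 7.31 and 15.97 CPM at 0 min and 9114, 6986 and 6274 CPM at 15 min. Other chaperone genes lay between these cases. *SSA4* averaged 1371 CPM at 0 min and 24260 CPM at 15 min in the no-memory samples, *HSP104* 2972 and 18840 CPM, *HSP42* 1180 and 5254 CPM, and *HSP82* 2982 and 12720 CPM. Of these 8 genes, *APJ1* had a mean at 0 min (461.9 CPM) above its means at 15 and 20 min (224.5 and 110.9 CPM). *BTN2* had one above its mean at 20 min (1808 and 1385 CPM), and the other means at 0 min were below those at both later times. Among the other large falls described below, the no-memory mean of *ATG41* was 161.4 CPM at 0 min and 109.4 CPM at 15 min, although replicate 3 rose. That of *FES1* was 1007 CPM at 0 min and 676.6 CPM at 20 min. Those of *HSP78*, *ROQ1*, *SSA1* and *HSP30* at 0 min were below both later means. In WT no-memory samples at 0 min, *BTN2* had 2733, 1722 and 991 CPM, *APJ1* 572, 376.3 and 240.9 CPM and *HSP26* 46.74, 49.05 and 44.14 CPM. No other culture without a heat shock is in the *mip6Δ* samples, so the groups are called memory and no-memory here, and lower in memory does not mean below an unstressed level.

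**Figure D1:**
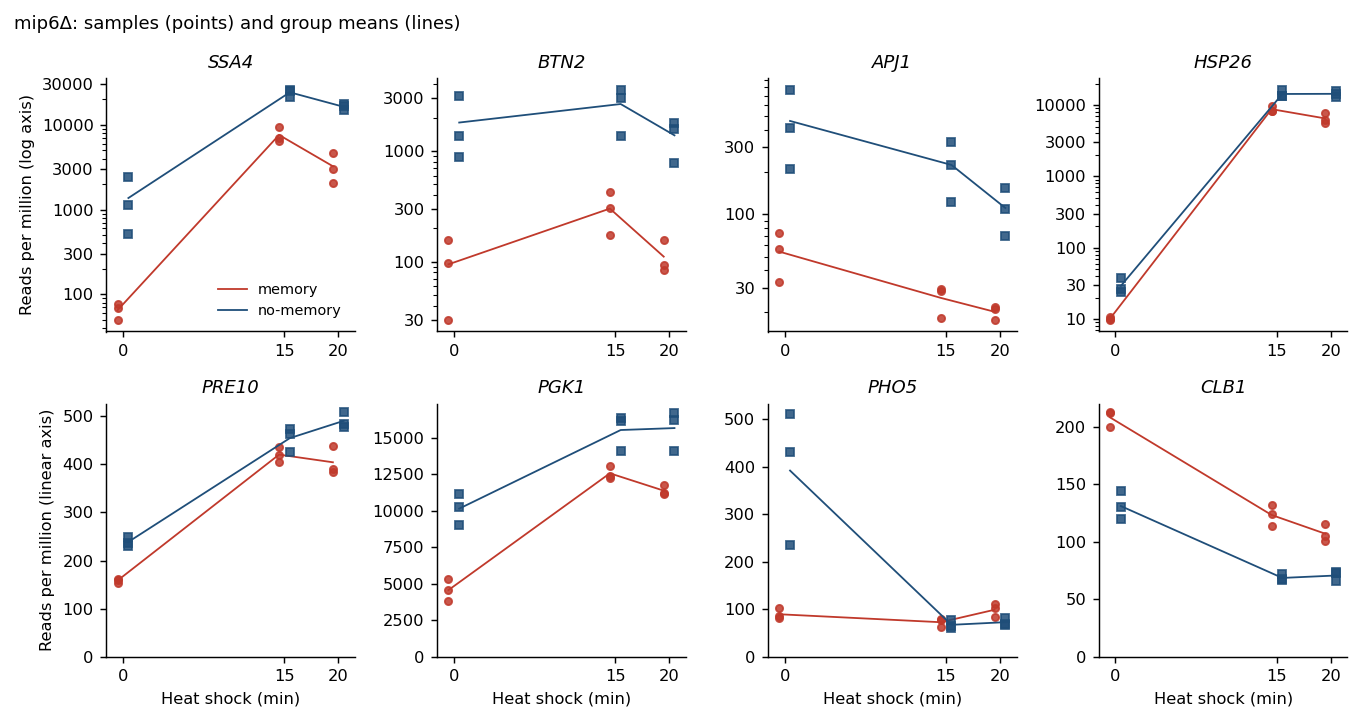
CPM of 8 genes in *mip6Δ* samples by minutes of the final heat shock, memory (red circles) and no-memory (blue squares), each point a sample and each line the group means. The upper row has log axes and the lower row linear axes from 0. In the no-memory samples, the mean of *APJ1* was highest at 0 min, and that of *BTN2* at 0 min lay between its means at 15 and 20 min. By contrast, *HSP26* started near the bottom in both groups.

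At 0 min, 316 of 6038 genes tested (5.23%) were higher in memory than in no-memory cells and 612 (10.1%) were lower, by edgeR's quasi-likelihood test with a Benjamini-Hochberg adjusted p under 0.05. Most of these differences were small. The median was 1.37-fold among the genes called higher and 1.35-fold among those called lower, and 21 genes were over 2-fold higher against 74 over 2-fold lower. With the replicate number as a block, the calls were 725 higher (12%) and 1001 lower (16.6%), and they held all 316 and all 612. Scaling by library totals moved the median of all genes up by 0.159 on the log2 scale and gave 1165 genes higher (19.3%) and 292 lower (4.84%). Small differences in either direction, and the balance between higher and lower, therefore depend on the scaling. Leaving out a replicate number from all groups gave 31 genes higher and 180 lower without replicate 2, 46 and 195 without replicate 3, and 498 and 646 without replicate 1. Without the memory sample whose labels disagree, 230 genes were higher and 508 lower.

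**Figure D2:**
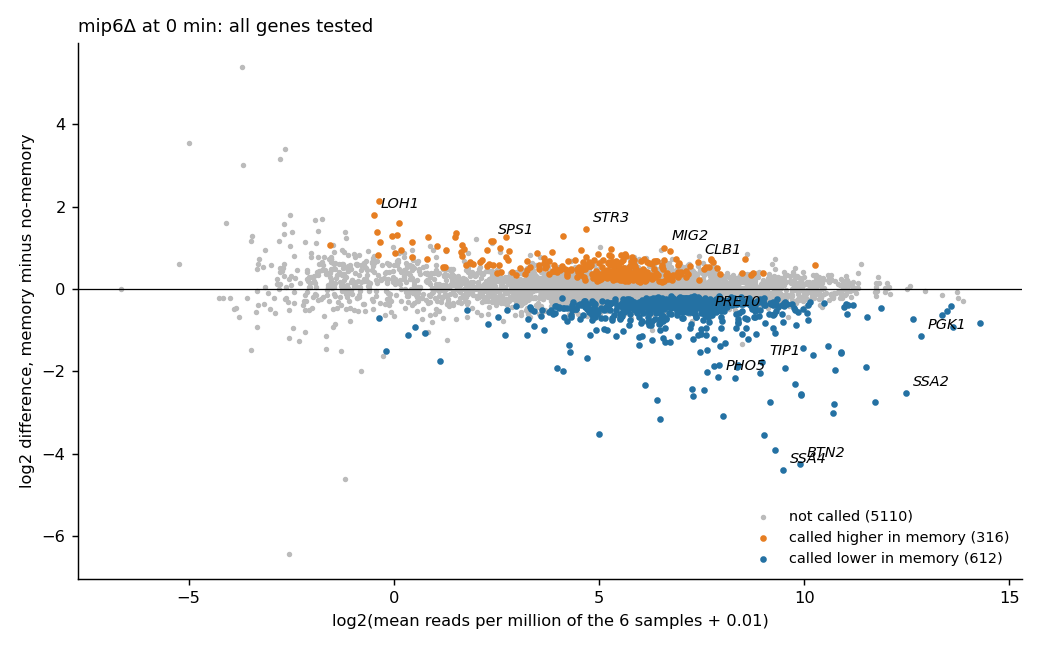
Log2 difference, memory minus no-memory, of the 6038 genes tested in *mip6Δ* cells at 0 min against their mean level over the 6 samples on a log2 axis. The 316 genes called higher lie mostly within a narrow band, and the 612 called lower extend further, to *SSA4*.

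The lists below group genes by their known roles, and their shares are to be read beside those of all genes tested. Over all genes, 10.1% were lower and 5.23% higher. These shares were 16.6% and 12% with the replicate block, and 4.84% and 19.3% with library totals. Of 31 cytosolic chaperone genes tested, 24 (77.4%) fell in memory cells and none rose, although 1 rose with library totals and 2 without replicate 1. The median log2 difference of the list was -1.91 against 0.009 over all genes. Reads of these genes made up 1.79%, 1.67% and 1.34% of all reads in the memory samples and 5.68%, 4.28% and 3.83% in the no-memory samples. The 3 memory samples were all below the 3 no-memory samples. The count stayed at 24 with the replicate block and was 22, 16 and 22 without replicates 1, 2 and 3, and the median was -1.75 with library totals.

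*SSA4* (YER103W; chromosome V, 364589 to 366517, plus strand), the strongly heat-inducible cytosolic Hsp70, had 76.8, 68.9 and 49.8 CPM in the memory samples and 2447, 1144 and 522 CPM in the no-memory samples. It fell 21-fold, the largest fall among the genes named for size, with a log2 difference of -4.39 ± 0.69 (SE; adjusted p = 6.81e-05, edgeR). The no-memory samples differed among themselves more than the memory samples did, and the groups did not overlap. *BTN2* had 156, 97.8 and 29.7 CPM in memory samples, so that it was 19.1-fold lower than in no-memory samples (log2 -4.26 ± 0.82, adjusted p = 0.00061, edgeR).

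*HSP42*, a small heat shock protein that collects aggregates in the cytosol, had 137, 67.1 and 30.9 CPM in memory samples and 2138, 936 and 467 CPM in no-memory samples (log2 -3.91 ± 0.75). *HSP104*, the disaggregase that pulls proteins out of aggregates, had 596, 338 and 173 CPM in memory samples and 4589, 2505 and 1822 CPM in no-memory samples (log2 -3.01 ± 0.59, adjusted p = 0.00074, edgeR). In each of these genes replicate 1 was the highest and replicate 3 the lowest in both groups. Without replicate 2 the adjusted p was 0.0589 for *BTN2*, 0.0615 for *HSP42*, 0.0744 for *HSP104* and 0.0193 for *SSA4* (edgeR). That fit had no replicate block. With the block and all replicates these values were 0.000104, 0.000134, 0.000376 and 7.9e-05 (edgeR).

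The abundant Hsp70 and Hsp90 genes were lower as well. *SSA2*, a constitutive Hsp70, had 2094, 1875 and 1072 CPM in memory samples and 9967, 10090 and 9000 CPM in no-memory samples (log2 -2.53 ± 0.34, adjusted p = 1.38e-05, edgeR). *SSA1* differed by -2.73 ± 0.46 and *HSP82*, the inducible Hsp90, by -2.79 ± 0.57. *HSP82* and *HSC82* are near-identical copies, as are *SSA1* and *SSA2*, so reads may be split between the partners. Co-chaperones fell with them. *SSE1*, a nucleotide exchange factor of Hsp70, had 931, 1038 and 923 CPM in memory samples and 3203, 2951 and 2405 CPM in no-memory samples (log2 -1.57 ± 0.18, adjusted p = 3.46e-06, edgeR), and *HCH1*, an Hsp90 regulator, differed by -1.22 ± 0.16. The members not called were *SSA3*, *SSB1*, *SSB2*, *HSP31*, *CPR7*, *SNL1* and *CNS1*, with log2 differences of -0.13 to 0.37. *SSB1* and *SSB2* encode the Hsp70 proteins that sit at the ribosome.

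**Figure D3:**
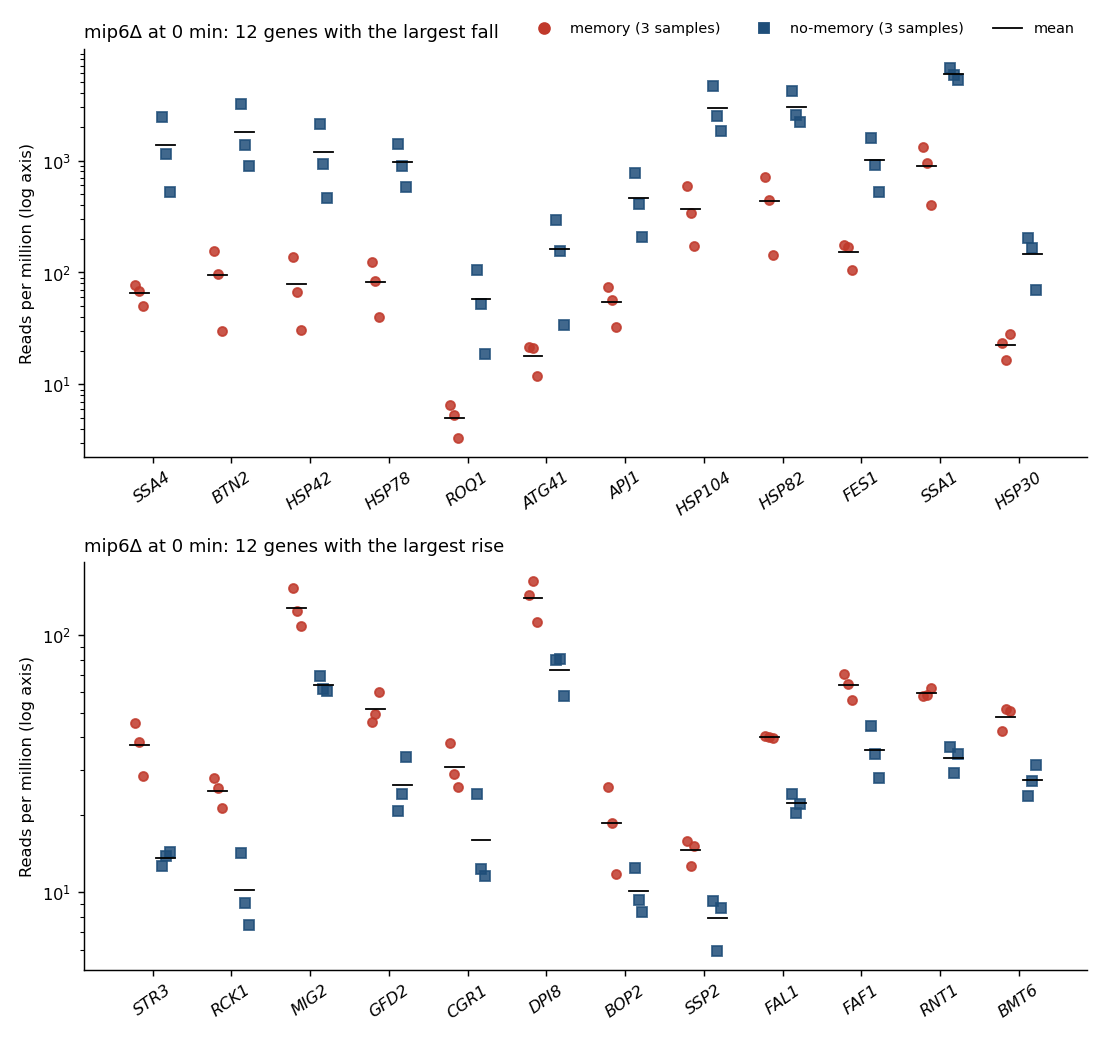
CPM (log axis) of the 12 genes with the largest fall and the 12 with the largest rise in *mip6Δ* cells at 0 min, memory samples (red circles) left of no-memory samples (blue squares), with the group mean as a bar. Both sets were taken from called genes with the same sign in all 3 same-numbered pairs, so the separation of the groups follows largely from that choice. The gap was more than 10-fold on average for *SSA4*, while the gaps of the lower panel are about 2-fold.

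Beyond the cytosol, 6 of 12 mitochondrial chaperone and protease genes (50%) fell and none rose. *HSP78*, the mitochondrial relative of Hsp104, had 125, 83.5 and 40.3 CPM in memory samples and 1413, 891 and 580 CPM in no-memory samples (log2 -3.54 ± 0.58, adjusted p = 0.0001, edgeR). *HSP60*, its co-chaperonin *HSP10* and the mitochondrial Hsp70 *SSC1* differed by -1.61 ± 0.24, -1.32 ± 0.18 and -1.39 ± 0.20. In the endoplasmic reticulum, 4 of 16 genes (25%) fell and none rose, and 5 fell with the replicate block. With library totals, when 19.3% of all genes were higher, 3 fell and 3 rose. The 4 genes include *KAR2*, the lumenal Hsp70, with 834, 742 and 539 CPM in memory samples and 3257, 2664 and 2395 CPM in no-memory samples. They also include *ERO1*, which supplies oxidizing power for disulfide bonds (log2 -1.84 ± 0.26). The median of this list was -0.08, and 0.08 with library totals.

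The 12 genes with the largest falls also hold *FES1*, *APJ1*, *ROQ1*, *ATG41* and *HSP30*. *FES1*, an Hsp70 exchange factor, differed by -2.74 ± 0.42 and *APJ1* by -3.09 ± 0.47. *ROQ1*, whose product redirects the ubiquitin ligase Ubr1 under stress, had 6.53, 5.32 and 3.30 CPM in memory samples and 104, 52.0 and 18.9 CPM in no-memory samples. *ATG41*, an autophagy gene, had 21.5, 21.0 and 11.9 CPM in memory samples and 294, 156 and 33.8 CPM in no-memory samples. *HSP30*, a plasma membrane stress protein, differed by -2.69 ± 0.54. Its adjusted p was 0.104 without replicate 2, and 0.000522 with the replicate block and all replicates (edgeR).

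The genes tested by the study behaved differently from each other. *HSP26* had 9.70, 10.1 and 10.7 CPM in memory samples and 37.5, 26.1 and 24.0 CPM in no-memory samples (log2 -1.52 ± 0.25, adjusted p = 0.000104, edgeR). *HSP12* had 13.2, 9.33 and 12.7 CPM in memory samples and 30.5, 7.31 and 15.97 CPM in no-memory samples. These overlapped, and the log2 difference of -0.61 ± 0.34 was not called (adjusted p = 0.231, edgeR). *TPS1* and *TPS2*, the subunits of trehalose synthesis, differed by -0.51 ± 0.25 and -0.69 ± 0.29 with adjusted p of 0.175 and 0.113 (edgeR). The highest memory and the lowest no-memory sample were close, at 326.2 and 330.2 CPM for *TPS1* and 198.1 and 199.6 CPM for *TPS2*. *CTT1*, cytosolic catalase, differed by -0.30 ± 0.28 and was not called. *ACC1*, acetyl-CoA carboxylase, fell (log2 -0.50 ± 0.09, adjusted p = 0.000283, edgeR), while *FAA1*, a fatty acyl-CoA synthetase, was not called (log2 -0.22 ± 0.13).

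Of 50 Msn2/4 stress genes tested, 17 (34%) fell and none rose, with a median of -0.38. The count was 19 with the replicate block, 12 with library totals, 5 without replicate 2 and also 5 without replicate 3. *GRE3*, an aldose reductase, had 75.6, 73.9 and 77.3 CPM in memory samples and 192, 158 and 150 CPM in no-memory samples. *EDC2*, an mRNA decapping activator, and *PEP4*, the vacuolar protease, differed by -1.13 ± 0.19 and -0.69 ± 0.12. In the trehalose and glycogen list, 2 of 21 genes fell (*TPS3* and *GPH1*), a share of 9.52% near the 10.1% of all genes. The count was 5 with the replicate block, where 16.6% of all genes were lower, 1 with library totals, 8 without replicate 1 and none without replicate 2, without replicate 3 or without the memory sample whose labels disagree. Of 32 oxidative defence genes, 6 (18.8%) fell and *GPX2* rose (3.12%), and with the replicate block 11 fell. With library totals, 3 fell and 3 rose, and 3 fell without replicate 1, 1 without replicate 2 and none without replicate 3. *GPX2* was not called without replicate 2, without replicate 3 or without the memory sample whose labels disagree.

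Of 40 ubiquitin and proteasome genes, 35 (87.5%) fell and none rose, with a median of -0.41 and log2 differences of -1.11 to -0.17. The count was 37 with the replicate block, 28, 28 and 16 without replicates 1, 2 and 3, and 25 with library totals. *PRE10*, a core particle subunit, had 154, 160 and 162 CPM in memory samples and 230, 249.5 and 237 CPM in no-memory samples (log2 -0.59 ± 0.07, adjusted p = 4.93e-06, edgeR). The 3 samples of each group were close together here, unlike those of *BTN2*, *HSP42* and *HSP104*. *ECM29*, a proteasome-associated scaffold, and *CDC48*, the segregase that delivers ubiquitinated proteins, differed by -0.95 ± 0.12 and -0.61 ± 0.09. *RPN4*, the transcription factor of these genes, differed by -0.94, and *UBI4*, polyubiquitin, by -1.11.

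**Figure D4:**
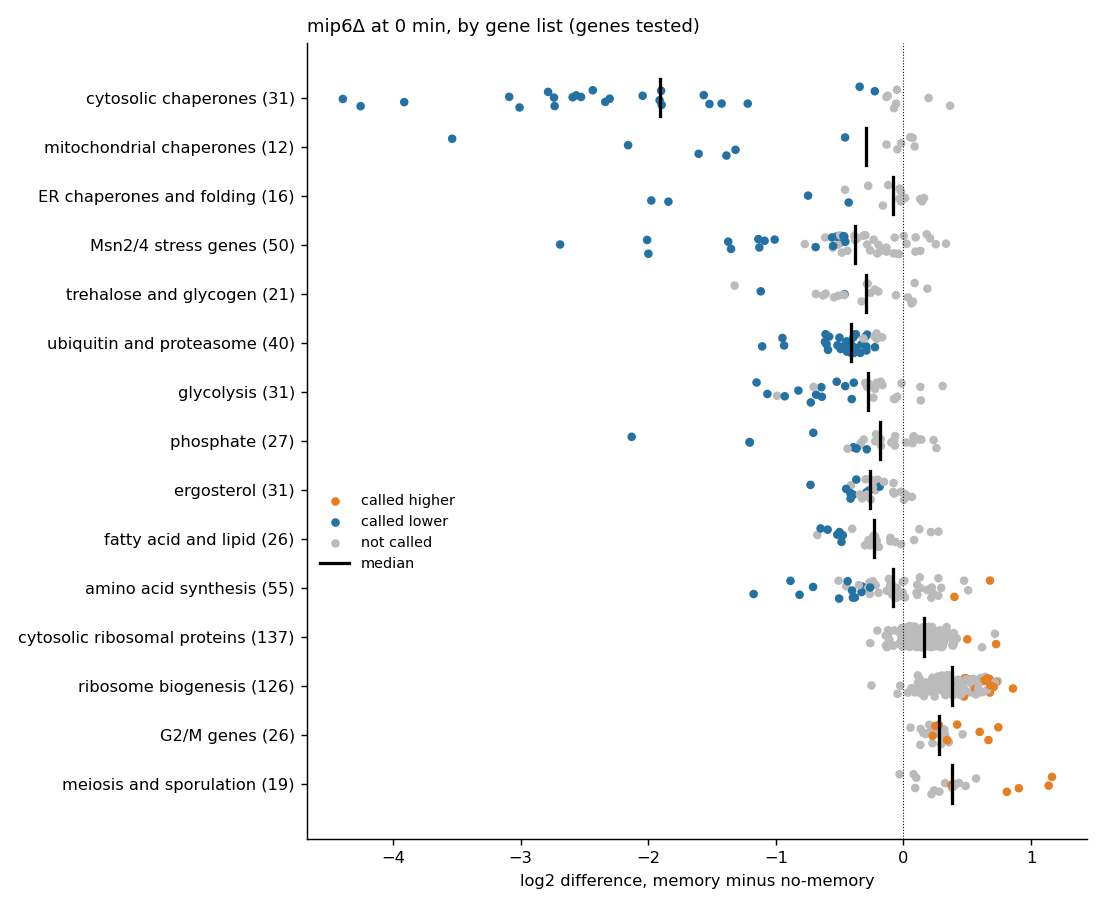
Log2 difference, memory minus no-memory, of each gene tested in 15 lists, in *mip6Δ* cells at 0 min; points are coloured by call and black bars are list medians. The 31 cytosolic chaperones spread from 0.37 to -4.39, whereas the 40 ubiquitin and proteasome genes sit in a narrow cluster around -0.41 and the 126 ribosome biogenesis genes around 0.38.

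Short stretches upstream of 10 of these genes are shown because the genes of several lists share a short motif there. Capitals mark only the matches of the motif named above each stretch. Matches of the other motifs, such as AGGGG in *HSP42* and *HSP104*, are left in lower case. They are read 5′ to 3′ on the gene's strand from the R64 (sacCer3) genome of RefSeq. The motifs were searched on both strands in the 300 bases before the start codon of 5877 protein-coding genes tested. The heat shock element, searched as the units GAA, TTC and GAA with any 2 bases between each unit and the next, was in 51 windows (0.868%), in 8 of the 31 cytosolic chaperones (25.8%) and in 5 of the 12 genes with the largest fall: *HSP42*, *HSP78*, *HSP104*, *FES1* and *SSA1*. Where matches overlap, they share bases.
HSP42, chrIV:806357-806416, plus strand: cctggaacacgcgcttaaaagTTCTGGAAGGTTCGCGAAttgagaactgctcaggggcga
HSP78, chrIV:974452-974511, minus strand: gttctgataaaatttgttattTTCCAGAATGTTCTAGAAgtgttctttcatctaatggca
HSP104, chrXII:88323-88382, plus strand: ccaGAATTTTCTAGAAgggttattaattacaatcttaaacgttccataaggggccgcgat
The proteasome element GGTGGCAAA, bound by Rpn4, was in 72 windows of all (1.23%) and in 30 of the 40 ubiquitin and proteasome genes (75%).
PRE10, chrXV:1018841-1018900, minus strand: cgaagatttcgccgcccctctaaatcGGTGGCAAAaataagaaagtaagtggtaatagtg
ECM29, chrVIII:39927-39986, plus strand: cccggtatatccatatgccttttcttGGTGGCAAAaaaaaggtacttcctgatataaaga
CDC48, chrIV:238772-238831, minus strand: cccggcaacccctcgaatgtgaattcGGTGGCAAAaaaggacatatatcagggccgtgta
CACGTG, an E box that the phosphate regulator Pho4 binds, was in 208 windows (3.54%) and in 11 of 27 phosphate genes (40.7%).
PHO5, chrII:431172-431231, minus strand: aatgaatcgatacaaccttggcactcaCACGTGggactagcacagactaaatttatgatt
PHO11, chrI:225160-225219, plus strand: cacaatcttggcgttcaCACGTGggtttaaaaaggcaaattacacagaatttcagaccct
GATGAG, the PAC motif of ribosome biogenesis genes, was in 1126 windows (19.2%) and in 112 of the 126 ribosome biogenesis genes (88.9%).
RRN3, chrXI:208046-208105, plus strand: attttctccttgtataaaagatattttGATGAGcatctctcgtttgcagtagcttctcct
FAL1, chrIV:486623-486682, plus strand: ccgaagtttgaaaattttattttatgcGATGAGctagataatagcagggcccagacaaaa
AGGGG, the stress response element of Msn2/4, was in 1314 windows (22.4%), in 38 of 50 Msn2/4 stress genes (76%), in 209 of 608 windows of genes called lower (34.4%) and in 38 of 310 of genes called higher (12.3%). GATGAG was in 69 windows of genes called lower (11.3%) and in 109 of genes called higher (35.2%). Of the 12 genes with the largest fall, 7 had AGGGG (58.3%), and of the 12 with the largest rise, 2 did (16.7%). A match is a description of the letters and was not set against binding data.

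Phosphate, glycolytic and lipid genes were among the other falls. Of 27 phosphate genes, 7 (25.9%) fell and none rose. The count was 11 with the replicate block, 4 with library totals, 6 without replicate 1 and 3 without replicate 2 or replicate 3. *PHO5* (YBR093C; chromosome II, 429548 to 430951, minus strand), the repressible acid phosphatase, had 85.4, 80.7 and 102 CPM in memory samples and 235, 510 and 430 CPM in no-memory samples (log2 -2.13 ± 0.20, adjusted p = 9.76e-08, edgeR). It had 64.6, 59.5 and 77.6 CPM in the no-memory samples at 15 min, below every memory sample at 0 min. *PHO11* and *PHO12*, near-identical phosphatase genes, differed by -1.21 ± 0.18 and -1.20 ± 0.18, and their reads cannot be told apart with certainty. *TIP1*, a cell wall mannoprotein, had 158, 307 and 223 CPM in memory samples and 762, 941 and 645 CPM in no-memory samples (log2 -1.77 ± 0.22).

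Of 31 glycolytic genes, 12 (38.7%) fell and none rose, with a median of -0.28. The count was 14 with the replicate block, and 11, 7 and 4 without replicates 1, 2 and 3. With library totals, 10 fell and 1 rose, with a median of -0.12. *PGK1*, phosphoglycerate kinase, had 3808, 5327 and 4564 CPM in memory samples and 9034, 11160 and 10230 CPM in no-memory samples (log2 -1.15 ± 0.13, adjusted p = 3.27e-06, edgeR). *GPM1*, phosphoglycerate mutase, differed by -0.73 ± 0.13. *ENO2*, enolase, differed by -0.93 ± 0.13 and has a near-identical copy, *ENO1*. Glycolytic transcripts made up 7.61%, 9.89% and 9.05% of reads in the memory samples and 11%, 13.3% and 12.1% in the no-memory samples.

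In lipid synthesis, 9 of 31 ergosterol genes (29%) fell, or 19 with the replicate block and 2 with library totals. The count was 13 without replicate 1, 1 without replicate 2 and 2 without replicate 3. *ARE2*, a sterol acyltransferase, differed by -0.73 ± 0.10 and *UPC2*, the sterol-sensing transcription factor, by -0.41 ± 0.08. Of 26 fatty acid and lipid genes, 6 (23.1%) fell, or 11 with the block, when 1 rose. The count was 8 without replicate 1, 2 without replicate 2 and 1 without replicate 3, while 4 fell and 1 rose with library totals. *FAS1*, a fatty acid synthase subunit, differed by -0.59 ± 0.14. Among 55 amino acid synthesis genes, 12 (21.8%) fell and 2 (3.64%) rose, or 19 and 8 with the block. With library totals 6 fell and 13 rose, and the balance over all genes turned as well (4.84% lower and 19.3% higher). Without replicate 2, 6 fell and 2 rose, and without replicate 3, 2 fell and none rose. *ILV2*, the first enzyme of branched-chain synthesis, had 562, 700 and 622 CPM in memory samples and 1103, 1239 and 1138 CPM in no-memory samples (log2 -0.89 ± 0.11, adjusted p = 4.93e-06, edgeR), whereas *ARG1*, argininosuccinate synthase, rose (log2 0.68 ± 0.15).

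The rises were smaller. Of 126 ribosome biogenesis genes, 17 (13.5%) rose and none fell, with a median of 0.38, or 0.53 with library totals. The reads of the list made up 2.41%, 2.60% and 2.68% in the memory samples and 1.83%, 1.78% and 1.94% in the no-memory samples. *RRN3*, an initiation factor of RNA polymerase I, had 91.9, 92.4 and 89.3 CPM in memory samples and 59.0, 52.6 and 64.04 CPM in no-memory samples (log2 0.64 ± 0.17, adjusted p = 0.0089, edgeR). *UTP30* and *RIO1*, which act in subunit assembly, differed by 0.67 ± 0.15 and 0.47 ± 0.11. The count of calls was unsteady: 32 rose with the replicate block, when 1 fell, and 47 with library totals. Without replicate 1, 45 rose, against none without replicate 2, 1 without replicate 3 and 12 without the memory sample whose labels disagree. The list median moved less, at 0.42, 0.34, 0.34 and 0.37 in the same order. In the main fit, 123 of the 126 log2 differences were positive and 3 negative. Fits without a replicate number had 2 samples a group and no block, so few calls there do not show that the rise was absent. Of 137 cytosolic ribosomal protein genes, 2 rose (*RPS9A* and *RPL15B*, each with a near-identical copy), or 5 with the block, 6 with library totals, 9 without replicate 1 and none without replicate 2, without replicate 3 or without the memory sample whose labels disagree. This share, 1.46%, is below the 5.23% of all genes called higher, and the list median was 0.16, or 0.32 with library totals.

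The largest rises among genes of at least 10 CPM were in genes of several kinds. *STR3* (YGL184C; chromosome VII, 154615 to 156012, minus strand), a cystathionine beta-lyase of methionine synthesis, had 45.3, 38.5 and 28.4 CPM in memory samples and 12.6, 13.9 and 14.3 CPM in no-memory samples, a 2.75-fold rise (log2 1.46 ± 0.29, adjusted p = 0.000896, edgeR). *MIG2*, a glucose repressor, had 152, 124 and 108 CPM in memory samples and 69.6, 61.6 and 60.4 CPM in no-memory samples (log2 1.00 ± 0.18). *RCK1*, a stress-linked kinase, had 27.8, 25.4 and 21.3 CPM in memory samples and 14.2, 9.11 and 7.45 CPM in no-memory samples. It had an adjusted p of 0.0136, and 0.221 without replicate 2 (edgeR). *CGR1*, *FAL1*, *FAF1*, *RNT1* and *BMT6*, all of them acting on ribosomal RNA or the ribosomal subunits, differed by 0.82 to 0.94. The other 4 were *GFD2*, *DPI8*, *BOP2* and *SSP2*, with 0.98, 0.93, 0.89 and 0.87. Without replicate 2, none of these 9 genes was called, with adjusted p of 0.1 to 0.383 (edgeR), while *STR3* (0.0212) and *MIG2* (0.0144) still were.

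Of 26 G2/M genes, 8 (30.8%) rose and none fell, or 15 with the replicate block and 17 with library totals. The count was 9 without replicate 1, 1 without replicate 2, 2 without replicate 3 and 4 without the memory sample whose labels disagree. *CLB1*, a mitotic cyclin, had 212.5, 199 and 212 CPM in memory samples and 130, 119 and 144 CPM in no-memory samples (log2 0.67 ± 0.10, adjusted p = 5.3e-05, edgeR). *TEM1*, the GTPase of mitotic exit, and *CDC5*, the polo kinase, differed by 0.60 ± 0.11 and 0.42 ± 0.11. Of 49 G1/S genes, 1 (2.04%) rose and 3 (6.12%) fell, below the 5.23% and 10.1% of all genes. The counts were 5 and 3 with the block and 3 and 0 with library totals. Without replicate 2, 1 rose and 1 fell, and without replicate 3 none did. No histone gene of 11 was called by edgeR or DESeq2, with 4 higher at an unadjusted p under 0.05, whereas 4 rose with the block, 4 without replicate 1 and 6 with library totals. The number of cells in each phase was not measured, and in bulk samples a different share of cells and a different level per cell cannot be told apart.

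Of 19 meiosis and sporulation genes, 5 (26.3%) rose at low levels, or 8 with the block and 10 with library totals. The count was 6 without replicate 1, 2 without replicate 2, 1 without replicate 3 and 3 without the memory sample whose labels disagree. *SPS1*, a sporulation kinase, had 5.89, 7.95 and 7.49 CPM in memory samples and 3.13, 3.13 and 3.26 CPM in no-memory samples (log2 1.17 ± 0.19). The summed level of the whole list was 107, 93 and 99 CPM in the memory samples and 83, 73 and 72 CPM in the no-memory samples. *PES4*, the paralog of *MIP6*, had 4.58, 2.70 and 2.25 CPM in memory samples and 1.97, 1.37 and 1.57 CPM in no-memory samples (log2 0.95 ± 0.28, adjusted p = 0.021, edgeR), and its adjusted p was 0.207 without replicate 2. In the list of mRNA export and decay, 6 of 26 genes (23.1%) fell and 1 (3.85%) rose, or 9 and 1 with the block. With library totals 1 fell and 5 rose, when 4.84% of all genes were lower and 19.3% higher. The counts were 2 and 0 without replicate 2 and 1 and 0 without replicate 3. Without the memory sample whose labels disagree, 4 fell and 1 rose. *NPL3*, an mRNA export factor, *RPD3*, a histone deacetylase, and *XRN1*, the cytosolic exonuclease, had log2 differences of -0.52 ± 0.08, -0.27 ± 0.05 and -0.32 ± 0.09, and with library totals *RPD3* and *XRN1* were not called.

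Heat classes taken from other samples gave a different cut through the same genes. Of 686 genes that rose over 2-fold in WT no-memory cells between 0 and 20 min, 149 (21.7%) were lower in *mip6Δ* memory cells at 0 min and 23 (3.35%) were higher, with a median of -0.16, or -0.00 with library totals. With the replicate block, 186 of them were lower and 43 higher. Of 720 genes that fell over 2-fold in WT, 29 (4.03%) were lower and 27 (3.75%) higher, with a median of 0.12, or 0.28 with library totals. Both shares are below those of all genes, 10.1% lower and 5.23% higher. With the block, 54 of the 720 were lower and 75 higher, when 16.6% of all genes were lower and 12% higher. Among the other 4632 genes, 434 (9.37%) were lower and 266 (5.74%) higher, or 761 and 607 with the block, and their median was 0.01, or 0.17 with library totals. Most heat-induced genes were not called at 0 min in either direction.

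The same contrast in WT cells shares no sample with the *mip6Δ* contrast. It gave 328 genes higher (5.43%) and 599 lower (9.92%). Of the genes called in *mip6Δ*, 200 were also higher in WT (63.3% of the *mip6Δ* calls and 61% of the WT calls) and 459 also lower (75% and 76.6%), and none was called in the opposite direction. Of the 928 genes called in *mip6Δ*, 922 had the same sign in WT. Across all 6038 genes the log2 differences of both strains had a Pearson r of 0.76, given as a description since genes are not independent replicates.

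The difference between the strains in this contrast was tested directly. By edgeR, no gene reached an adjusted p under 0.05, and DESeq2 called 0. At an unadjusted p under 0.05 (edgeR) there were 72 of 6038 genes, fewer than that threshold gives on average without any strain difference. The main fit does not use the pairing of same-numbered samples, and 0 calls does not show that the strains responded alike. The smallest adjusted p was 1 in edgeR. *SSA4* fell less in WT (log2 -2.55 ± 0.64), with 734, 79.5 and 56.5 CPM in WT memory samples and 2807, 1490 and 799 CPM in WT no-memory samples. WT memory replicate 1 stood apart: cytosolic chaperone transcripts made up 3.68% of its reads, against 1.79% and 1.31% in the other WT memory samples. The strain difference in the fall of *SSA4* was -1.84 ± 0.86 (unadjusted p = 0.0408, edgeR) and 0.25 without that sample, and for *BTN2* it was -2.14 ± 1.02 and 0.39 without it. The median of the chaperone list was -1.91 in *mip6Δ* and -1.36 in WT, with 24 and 20 genes lower, and in WT it was -2.11 with 24 genes lower when that sample was left out.

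The smallest p-values of the strain difference were those of *LOH1*, *YPR078C*, *SER1*, *ADE1* and *SHM2*, none of them called. *LOH1* had 1.15, 1.26 and 0.857 CPM in *mip6Δ* memory samples and 0.246, 0.352 and 0.345 CPM in *mip6Δ* no-memory samples. In WT it had 0.985, 0.688 and 0.827 CPM in memory samples and 0.571, 0.578 and 0.702 CPM in no-memory samples. These are low levels, near 1 CPM or below it. *SHM2*, a serine hydroxymethyltransferase, had 2650, 1625 and 2029 CPM in *mip6Δ* memory samples and 1629, 1694 and 2224 CPM in *mip6Δ* no-memory samples. In WT, it had 1370, 1690 and 1709 CPM in memory samples and 1851, 2034 and 4556 CPM in no-memory samples, and no-memory replicate 3 was far above the others.

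**Figure D5:**
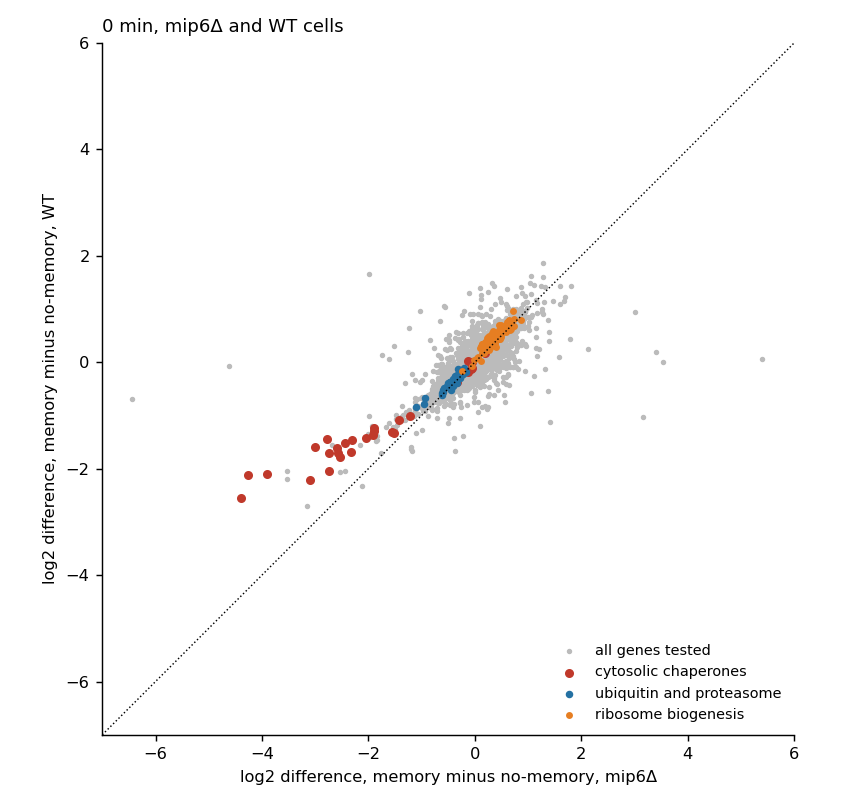
Log2 difference, memory minus no-memory, at 0 min in *mip6Δ* cells (horizontal) and in WT cells (vertical) for all 6038 genes tested, with 3 lists coloured and equality dotted. Proteasome and ribosome biogenesis genes lie along the dotted line, and the chaperones with the largest falls lie above it, where WT memory replicate 1 had 3.68% of its reads in chaperone transcripts.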

How the data were processed

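Total RNA was sequenced with a stranded mRNA kit in 36 samples, 12 groups of 3 replicates by strain, condition and time. Per the labels and the study's methods, the authors trimmed reads with Trimmomatic, mapped them to sacCer3 with HISAT2 and counted them with StringTie; versions and the counter's strand setting are not given in the sources used here. The deposited read counts per gene (6403 genes, all matched to RefSeq by locus tag) were used for the main test. The deposited normalized counts, a signal on a linear scale (6172 genes), were made by the authors with a low count filter, TMM and ARSyN batch removal. They lack 231 genes of the count table, *SSA4* and *BTN2* among them, and served only as an alternative with limma on log2 values with a pseudocount of 1 or 10.

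Counts were filtered with filterByExpr, scaled by TMM and fitted with edgeR 4.0.16 (R 4.3.3; glmQLFit, 12 groups, 24 residual degrees of freedom), with the Benjamini-Hochberg adjustment over the 6038 genes tested. The fit uses all 36 samples, so that all groups share an estimate of the spread. SE was derived from the log2 difference and its F value. DESeq2 1.42.0 and limma 3.58.1 were alternatives. The script was tested on simulated data.

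Nothing in the labels says which samples came from separate cultures; the study calls them biological replicates. Same-numbered memory and no-memory samples deviated together in *mip6Δ* (correlation of deviations from group means 0.407, 0.221 and 0.392, against -0.342 to 0.020 for different numbers). The study also split each culture into both conditions, so the numbers pair the samples. The main test, its SE and the fits with samples left out do not use this pairing. Blocked values are given where they move a result.

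The named genes were 10 genes of the study and *HSP104*, the 12 with the largest rise and the 12 with the largest fall among called genes with a mean of at least 10 CPM and the same sign in all 3 same-numbered pairs, up to 3 called members of each of 32 lists per direction by smallest p, and the 5 with the smallest p for the strain difference. *HSC82*, *RPN4*, *UBI4*, the uncalled chaperones and the markers were named in addition after their values were seen. The members and lists were chosen with earlier results of these data known. Copies were taken as near-identical at 90% identity over 50% of the length. Alternatives covered scaling, low-count filters, tools, samples in the fit, the replicate block, a fold threshold of 1.2 and samples left out.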

Additional observations from a re-analysis of the deposited data

How the results depend on the processing

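The counts of genes called higher and lower in *mip6Δ* memory cells (316 and 612) moved by over 1.5 times under several alternatives. They were 1165 and 292 with library totals, 725 and 1001 with the replicate block, 33 and 165 when a fold of 1.2 was the null, and 734 and 968, 729 and 968, or 742 and 976 with limma on the normalized counts at a pseudocount of 1, of 10, or with means under 10 left out; ARSyN may have narrowed the spread there, which was not tested. With only the 6 *mip6Δ* samples at 0 min they were 236 and 337. Leaving out a replicate number or a single sample gave 31 to 554 higher and 180 to 705 lower. DESeq2, RLE factors, other filters and the 12 samples at 0 min gave counts within 1.5 times of the main ones.

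Of 122 named genes with a value, all kept their side of the threshold with the replicate block, 107 with library totals, 58 without replicate 2 and 61 without replicate 3. The only reversal among them was *HSP12*, not called, at 0.01 without no-memory replicate 1, and it was called lower (-0.99) without no-memory replicate 2. The strain difference gave 0 calls in every fit, including, as an alternative chosen after seeing the data, without WT memory replicate 1, when 333 and 628 genes were called in *mip6Δ*. With 3 samples a group and chaperone levels that vary widely among them, a small strain difference in the chaperone genes could be missed.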
